A study of Mus musculus with 12 samples.

Results

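Dermal papilla cells were compared with melanocytes across the genes of the mouse genome, with attention to signals made in the papilla and to the receptors carried by melanocytes. The comparison used 4 of the 12 libraries of the series, 2 of dermal papilla and 2 of melanocytes, and 12674 of the 19150 listed genes, those reaching 1 FPKM in 2 or more of these 4 libraries. FPKM corrects the reads of a gene for its length and for the size of the library, so levels of different genes are compared here only per length. RNA was sequenced from 6 populations sorted from back skin, and both groups here came from CD1 mice at postnatal day 5, with no treatment named. CD1 is an albino strain, so its melanocytes carry a tyrosinase that makes no pigment. The sort gates are not given in the sources used here, so whether Kit or any other gene named below served to collect the cells is not known. Whether the 2 libraries of each population derive from different mice or from 1 preparation is not stated, and the p-values below therefore reflect a spread that could be technical.

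The dermal papilla is a cluster of mesenchymal cells enclosed by the base of the growing hair follicle, and its secreted factors act on the epithelial matrix and on the pigment cells lodged there. Hair melanocytes make melanin in melanosomes and pass it to the keratinocytes of the shaft. Agouti protein, secreted by the papilla, blocks the melanocortin receptor MC1R on melanocytes and turns pigment production from black to yellow, while Kit ligand, endothelin 3 and hepatocyte growth factor support melanocyte survival, migration and division through KIT, EDNRB and MET.

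The FPKM of the 4 libraries summed to between 399675 and 451512, and 10951 to 12413 genes reached 1 FPKM in each. The depth in reads is unknown. An exact 0 may be a failed estimate: Malat1, a nuclear RNA made by nearly all cells, was listed at 0 in the papilla, sheath and fibroblast libraries and between 1734 and 5039 FPKM in the other 6. The labels speak of 6 barcoded adapters for 3 samples with 2 replicates each, without saying which populations were prepared together, so a difference between library sets and a difference between papilla and melanocytes cannot be told apart. In sorted bulk samples fewer cells of a type and less RNA per cell cannot be told apart either.

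The labels were set beside defining genes, which were chosen with earlier results of these data known, so their agreement is no independent check. All 14 melanocyte markers, among them the pigment enzyme genes Tyr, Tyrp1 and Dct, were higher in melanocytes, and their papilla level was 0.274% to 1.83% of the melanocyte level, with a median of 0.605%. Of 20 papilla markers, 19 were higher in the papilla. The exception was Lef1, a transcription factor of WNT signalling, with 101 and 104 FPKM in the papilla and 76.7 and 119 FPKM in melanocytes. The median melanocyte level of the 20 was 0.191% of the papilla level, and a and Tbx18 were listed at 0 in both melanocyte libraries. Corin, the protease that marks the papilla, had 344 and 395 FPKM there and 0.366 and 1.02 FPKM in melanocytes.

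Markers of other cell types moved with the comparison. Of 8 keratinocyte markers 5 were higher in the papilla and Cdh1 was higher in melanocytes. The summed level of the list was 148 to 247 FPKM in the papilla and 105 to 157 FPKM in melanocytes, where Cdh1 made up most of it. Krt5, Krt14, Krt15 and Trp63, genes of basal keratinocytes, stood in the papilla at 2.81% to 10.9% of their outer root sheath level and in melanocytes at 0.352% to 1.01%. Their 4 calls were lost without a papilla library (adjusted p of 0.0617 to 0.137). The part of keratinocyte RNA in the results was not tested. Of the genes called higher in the papilla, 508 (18.9%) had a higher mean in outer root sheath or matrix than in the papilla. Over all 12674 tested genes this was more common, as leaving such genes out kept 5995. Genes called higher in the papilla were chosen for a high papilla level, so a lower share among them follows from that choice. The comparison therefore does not bear on the part of keratinocyte RNA. Pericyte and muscle markers summed to 40.8 and 64.3 FPKM in the papilla against 4.54 and 3.53 FPKM in melanocytes. The 3 that were tested of 6, Acta2, Myh11 and Rgs5, were called higher in the papilla. Without a papilla library, and with a pseudocount of 5, the calls of Myh11 and Rgs5 were lost. Ckm was listed at 0 in all 4 libraries. The summed level of endothelial markers was 7.42 to 9.94 FPKM in the papilla and 3.02 to 6.19 FPKM in melanocytes, and that of macrophage markers 9.63 to 12.1 FPKM against 9.07 to 21 FPKM, with 0 of the 4 tested members of these 2 lists called. Ptprc, a gene of all leukocytes, and Csf1r, a receptor of macrophages, were listed at 0 in both melanocyte libraries. Of the 5 Schwann cell markers 3 were higher in melanocytes and 2 in the papilla. Cdh19, a cadherin of the Schwann cell lineage, had 0.220 and 0.722 FPKM in the papilla and 4.81 and 9.22 FPKM in melanocytes, with a call lost without a papilla library (adjusted p = 0.161 without papilla library 1 and 0.111 without papilla library 2). Of 4 mast cell markers, which summed to 5.72 and 16.0 FPKM in the papilla and 15.4 and 27.8 FPKM in melanocytes, Tpsb2 was higher in melanocytes with 15.4 and 27.3 FPKM, a call lost without a papilla library (adjusted p of 0.101 to 0.118), while Mcpt4 and Cpa3 were listed at 0 in both melanocyte libraries. The erythroid gene Hbb-bs, entered in the table as Beta-s, had 48.2 and 24.9 FPKM in the papilla and 1.91 and 3.05 FPKM in melanocytes. Its call toward the papilla was lost without a papilla library.

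A gene was called where its adjusted p in limma, with Benjamini-Hochberg adjustment over all tested genes, was under 0.05 and its log2 difference at least 1 in size. By this rule 2687 genes (21.2% of those tested) were higher in the papilla and 1696 (13.4%) were higher in melanocytes. Each list count below is to be read against these shares, and a count near them is not a result about the list. Differences are given as papilla minus melanocytes on the log2(FPKM + 1) scale with the standard error of the fit, n = 2 libraries in each population, and this scale understates the change of low genes. The median difference over all tested genes was 0.04. Both counts depended on having both papilla libraries: without papilla library 1 the calls numbered 988 and 172, and without papilla library 2 they numbered 1053 and 192. Quantile normalization moved the split of calls from 61.3% to 48.0% on the papilla side. Among the 2687, the papilla had the highest mean of the 6 populations for 1323 genes (49.2%) and the dermal sheath for 745, and among the 1696 melanocytes had the highest mean for 1181 (69.6%).

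**Figure D1:**
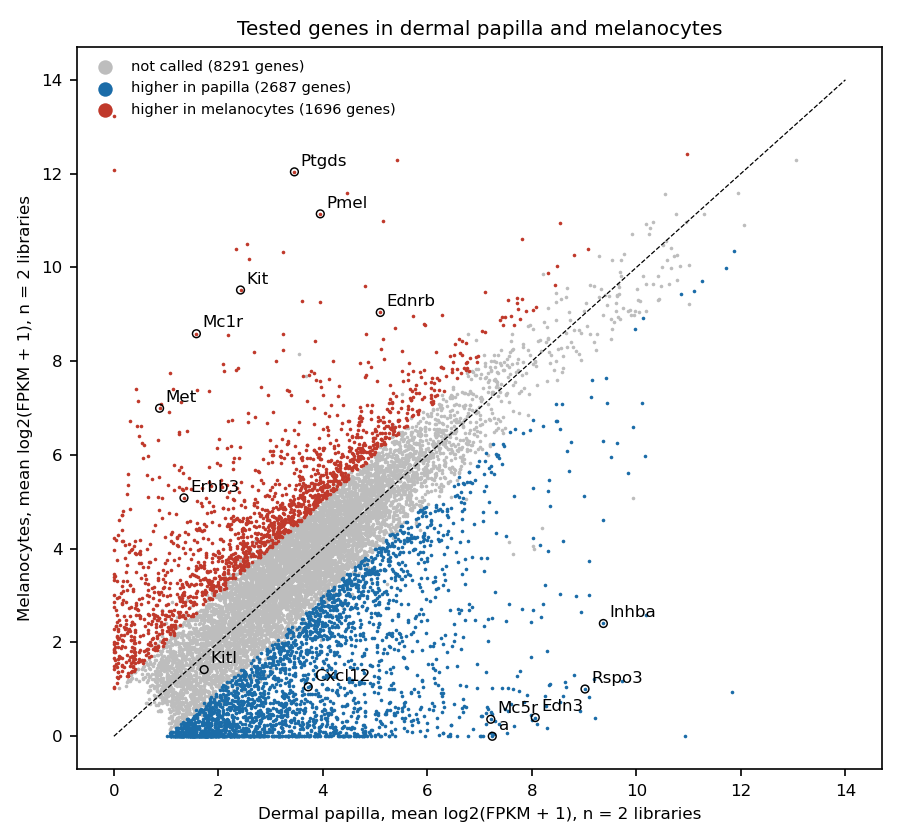
Mean log2(FPKM + 1) in dermal papilla (x axis) and in melanocytes (y axis), n = 2 libraries each, for the 12674 tested genes; the dashed line marks equal levels and circles mark genes named in the text. The 2687 genes higher in the papilla lie below the line and the 1696 higher in melanocytes above it, with Kitl close to the line.

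By the rule used to name genes, those with the largest differences toward the papilla among genes above 0 in all 4 libraries were Islr, Sfrp1, Fgf7, Sostdc1, Rspo3, Igfbp4, Corin, Alpl, Edn3 and Rspo1. Of these, 7 encode secreted proteins of WNT, BMP, FGF, IGF or endothelin signalling. Sfrp1, a secreted frizzled-related WNT inhibitor, had 839 and 857 FPKM in the papilla and 2.16 and 0.622 FPKM in melanocytes (log2 difference 8.55 ± 0.35, adjusted p = 1.55e-06). Igfbp4, which binds insulin-like growth factors, had 770.3 and 444 FPKM against 2.98 and 0.376 FPKM, and its call was lost on leaving out a papilla library (adjusted p = 0.062 without papilla library 1 and 0.0531 without papilla library 2). Toward melanocytes the same rule named Ptgds, Trpm1, Tyr, Slc45a2, Pmel, Dct, Tyrp1, Kit, Mc1r and Mcoln3. Ptgds, the synthase of prostaglandin D2, had the largest of these differences, with 8.48 and 11.7 FPKM in the papilla and 6131 and 2879.8 FPKM in melanocytes (log2 difference -8.58 ± 0.40, adjusted p = 2.21e-06). Mcoln3 encodes an endolysosomal cation channel and had 0.146 and 0.568 FPKM against 192 and 147 FPKM. Absence of overlap between the libraries was part of that rule, and it was common: over all tested genes both papilla libraries lay above both melanocyte libraries for 36.2% and below them for 32.2%. Among genes called higher in the papilla and listed at 0 in both melanocyte libraries, Snora5c, Mir1188, a, Fxyd1 and Twist1 had the highest means. Snora5c and Mir1188 are short RNAs, to which scaling to length gives high values. Snora5c was listed at 2106 and 0 FPKM in sheath and 4193 and 0 FPKM in fibroblasts, so its 0 may be a failed estimate. Mir1188 was listed at 0 in all 6 libraries of outer root sheath, matrix and melanocytes and in no dermal library, the reverse of the Malat1 split. Twist1, a transcription factor of mesenchyme, had 164 and 103 FPKM in the papilla. In the opposite direction the genes with the highest means were Mir211, Malat1, Gjb1, Gm3776 and 4930471G03Rik. Gjb1, a gap junction gene, had 19.8 and 15.99 FPKM in melanocytes. The calls of Gm3776 and 4930471G03Rik were lost without a papilla library (adjusted p of 0.0581 to 0.135).

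Of 52 ligand and receptor pairs known from follicle and pigment cell signalling, 6 had the ligand called higher in the papilla and the receptor called higher in melanocytes. These were a with Mc1r, Edn3 with Ednrb, Hgf with Met, Bmp2 with Bmpr2, Nrg2 with Erbb3 and Sema7a with Plxnc1. A further 18 pairs had both genes higher in the papilla, 2 had the ligand higher in melanocytes and the receptor higher in the papilla, and 1 had both higher in melanocytes. Over all tested genes 21.2% were called higher in the papilla and 13.4% in melanocytes. Among tested signals 68.7% were higher in the papilla, and among tested receptors 14.7% in melanocytes. Most ligands were set against only 1 chosen receptor, as Inhba was against Acvr2a, and Bmpr2 was set only against Bmp2. The count of 6 depends on these choices and describes the chosen pairs.

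**Figure D2:**
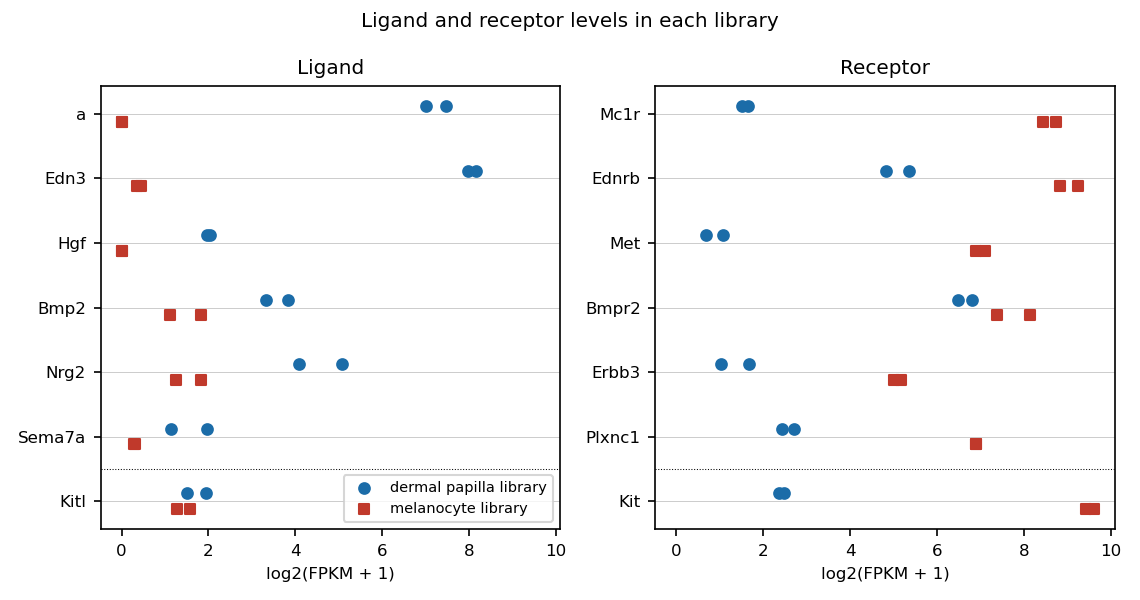
FPKM as log2(FPKM + 1) in each library for the ligands (left) and receptors (right) of the 6 pairs split between papilla and melanocytes, and below the dotted line Kitl with Kit. Circles are the 2 papilla libraries and squares the 2 melanocyte libraries; the populations do not overlap except for Kitl.

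The agouti gene a (chr2:154791402-155051012, plus strand, GRCm38, GENCODE M21) had 177 and 127 FPKM in the papilla libraries and was listed at 0 in both melanocyte libraries. It was near 1 FPKM in the sheath (1.58 and 0.818) and fibroblasts (1.42 and 0.965) and listed at 0 in outer root sheath and matrix, so the papilla stood apart from the other 5 populations. The annotated span of a overlaps Raly and Eif2s2, and whether the counting used strand is not given in the sources used here. Mc1r (chr8:123407107-123410744, plus strand) showed the reverse pattern, with 1.86 and 2.12 FPKM in the papilla and 344 and 426 FPKM in melanocytes. The libraries did not overlap (log2 difference -7.01 ± 0.29, adjusted p = 1.55e-06). Fibroblast libraries also held 146 and 129 FPKM of Mc1r. Melanocyte markers as a list stood in those fibroblast libraries at 21.1% to 64.6% of the melanocyte level, and their part in the fibroblast values was not tested.

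Other melanocortin receptors lay on the papilla side. Mc5r had 149.9 and 145 FPKM in the papilla and 0.654 and 0 FPKM in melanocytes (log2 difference 6.85 ± 0.36, adjusted p = 2.82e-06). Mc3r had 15.9 and 11.5 FPKM against 0.0883 and 0 FPKM, and Mc2r, the receptor for adrenocorticotropic hormone, had 9.97 and 11.96 FPKM against 0 in both melanocyte libraries. The papilla had the highest mean of the 6 populations for each of these 3 receptors. Pomc, the precursor of the melanocortin peptides that activate MC1R, overlapped between the populations at 0.802 and 1.89 FPKM and 1.15 and 0 FPKM. Atrn and Mgrn1, which in mice are needed for agouti to act, were present in both. Their levels were 27.9 and 28.99 FPKM against 38.8 and 35.1 FPKM for Atrn (adjusted p = 0.345) and 36.7 and 24.01 FPKM against 32.1 and 24.9 FPKM for Mgrn1 (adjusted p = 0.892). Of the 9 tested genes of the melanocortin axis 5 were thus higher in the papilla and 1, Mc1r, was higher in melanocytes, with a median difference of 3.58.

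Edn3, the endothelin of melanocyte development (chr2:174760619-174784042, plus strand), had 285 and 249 FPKM in the papilla and 0.276 and 0.362 FPKM in melanocytes (log2 difference 7.67 ± 0.30, adjusted p = 1.43e-06). Its papilla level lay above all other libraries of the series, the nearest being sheath with 18.1 and 31.5 FPKM and fibroblasts with 20.9 and 30.1 FPKM. Ece1, the enzyme that cuts endothelin precursors to the active peptide, was also higher in the papilla at 126 and 113 FPKM against 6.42 and 3.18 FPKM, although the call was lost on leaving out a papilla library (adjusted p = 0.0646 without papilla library 1 and 0.0599 without papilla library 2). Ednrb, the receptor for all 3 endothelins (chr14:103814625-103844402, minus strand), had 27.5 and 40.2 FPKM in the papilla and 602 and 458 FPKM in melanocytes (log2 difference -3.94 ± 0.32, adjusted p = 2.8e-05). Melanocytes were not its highest population, since the sheath libraries held 695 and 1272 FPKM. The other receptor, Ednra, was on the papilla side, with 46.6 and 55.1 FPKM against 3.63 and 3.395 FPKM (log2 difference 3.52 ± 0.31, adjusted p = 4.94e-05).

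Hgf, the ligand of MET, was low in the papilla at 3.09 and 2.89 FPKM and listed at 0 in both melanocyte libraries. Its call was lost with a pseudocount of 5. No other population exceeded 0.340 FPKM. Met (chr6:17463800-17573980, plus strand) had 0.598 and 1.104 FPKM in the papilla and 137 and 117 FPKM in melanocytes, without overlap (log2 difference -6.12 ± 0.33, adjusted p = 3.07e-06). Nrg2, a neuregulin, had 32.8 and 16.1 FPKM in the papilla and 2.55 and 1.37 FPKM in melanocytes (log2 difference 3.05 ± 0.44, adjusted p = 0.000718). An antisense transcript, 4930471G03Rik, lies inside the Nrg2 gene and was listed at 0 in the papilla with 8.42 and 11.8 FPKM in melanocytes, so reads of the 2 genes may not have been told apart. Erbb3, the neuregulin receptor carried by neural crest cells, had 2.17 and 1.03 FPKM against 34.8 and 31.2 FPKM (log2 difference -3.74 ± 0.37, adjusted p = 9.01e-05). Erbb4, another neuregulin receptor, lay on the same side with 0.0332 and 0 FPKM against 2.04 and 2.98 FPKM. Without a papilla library the calls of Nrg2 and Erbb4 were lost, and that of Erbb4 was also lost with a pseudocount of 5.

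The Bmp2 and Sema7a pairs rested on smaller differences. Bmp2 had 8.97 and 13.2 FPKM in the papilla and 1.17 and 2.55 FPKM in melanocytes, and the matrix libraries held 11.3 and 12.1 FPKM. Its type II receptor Bmpr2 had 88.9 and 110.4 FPKM against 165 and 279 FPKM (log2 difference -1.11 ± 0.34, adjusted p = 0.0306). Both calls were lost on leaving out a papilla library, with adjusted p-values of 0.133 to 0.338, and that of Bmpr2 was also lost without melanocyte library 2, under quantile normalization, with libraries rescaled to an equal sum and with no filter. Sema7a, a membrane-bound semaphorin, had 2.94 and 1.21 FPKM in the papilla and 0.247 and 0.228 FPKM in melanocytes (adjusted p = 0.0167) and was higher still in the matrix at 5.92 and 4.59 FPKM. Its call was lost without papilla library 1, with a pseudocount of 5, with no filter and under quantile normalization. The receptor Plxnc1 was clear of overlap, with 4.36 and 5.51 FPKM against 118 and 118 FPKM (log2 difference -4.33 ± 0.29, adjusted p = 1.22e-05).

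Kit and its ligand did not follow this pattern. Kit (chr5:75574916-75656722, plus strand) had 4.61 and 4.13 FPKM in the papilla and 683 and 784 FPKM in melanocytes (log2 difference -7.09 ± 0.27, adjusted p = 1.43e-06). Kitl had 1.86 and 2.83 FPKM in the papilla and 1.96 and 1.43 FPKM in melanocytes, and the libraries overlapped (log2 difference 0.31 ± 0.33, adjusted p = 0.511). Matrix libraries held 16.01 and 27.4 FPKM of Kitl, fibroblasts 10.9 and 17.3 FPKM and outer root sheath 4.68 and 4.93 FPKM, each above both papilla libraries.

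**Figure D3:**
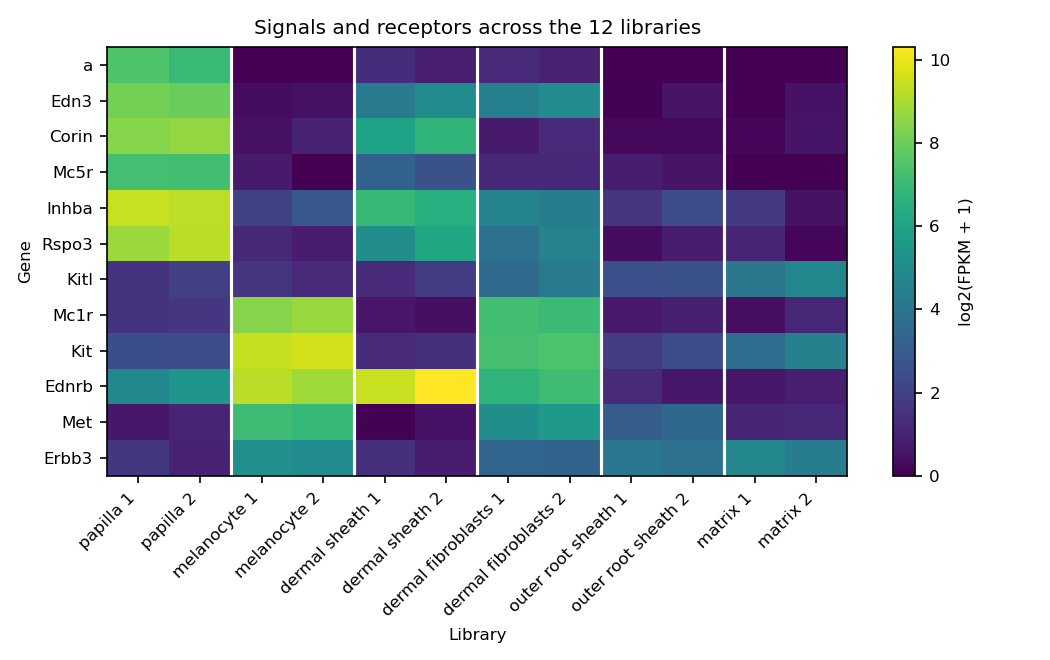
Level as log2(FPKM + 1), by colour, of 12 genes, mainly signals and receptors (rows), in the 12 libraries of the 6 populations (columns, separated by white lines). The ligand a is brightest in the 2 papilla libraries, Ednrb is brightest in sheath and melanocytes, and Kitl in matrix and fibroblasts.

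Across the whole list of secreted signals, 169 of 170 genes were in the table and 115 passed the filter, of which 79 were higher in the papilla and 11 higher in melanocytes. The median difference of these 115, with genes listed at 0 entered through the pseudocount of 1, was 2.02. A signal made only in the papilla could pass the filter solely by being high there, and 41 of the 169 were listed at 0 in both melanocyte libraries, so the count describes the list and is no test of it. Without papilla library 1 the 79 became 49 and without papilla library 2 they became 52. The same holds for the receptor list, with 127 of 130 genes in the table and 102 tested, of which 58 were higher in the papilla and 15 in melanocytes (median difference 1.38). The 15 are 14.7% of the tested receptors, close to the 13.4% of all tested genes, so their number is not a result about receptors. Of the 15, 7 were called without papilla library 1 and 7 without papilla library 2.

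Of the 16 tested R-spondins and WNT inhibitors 13 were higher in the papilla (median difference 4.70, against 0.04 over all tested genes). R-spondins strengthen WNT signalling through LGR receptors. Rspo1, Rspo2, Rspo3 and Rspo4 had papilla levels of 317 and 203, 70.8 and 85.7, 435 and 614 and 325 and 301 FPKM, and none exceeded 1.28 FPKM in a melanocyte library. Their receptor gene Lgr4 had 34.1 and 40.01 FPKM against 13.4 and 15.4 FPKM. Lgr5 had 2.24 and 3.75 FPKM against 0.651 and 0.221 FPKM. Both were called higher in the papilla, and both calls were lost without a papilla library. That of Lgr5 was also lost with a pseudocount of 5 and under quantile normalization. The 3 genes of this list higher in melanocytes were Dkk3, a divergent member of the Dickkopf family, Sfrp4, and Dact1, an intracellular regulator, of which Sfrp4 and Dact1 lost their calls without a papilla library (adjusted p of 0.0845 to 0.137). Dkk3 had 14.8 and 15.5 FPKM in the papilla and 137 and 174 FPKM in melanocytes (log2 difference -3.27 ± 0.28, adjusted p = 4.05e-05). Of the 17 WNT ligand genes only 6 passed the filter, and 10 were listed at 0 in both melanocyte libraries. Those 10 could pass only by their papilla level. Wnt5a, a ligand of β-catenin-independent signalling, had 88.7 and 121 FPKM in the papilla and 0.444 and 0.707 FPKM in melanocytes (log2 difference 6.06 ± 0.34), and its receptor Ror2 had 15.1 and 10.1 FPKM against 0 and 0.0265 FPKM. Wnt4 was the 1 ligand higher in melanocytes, at 3.82 and 3.62 FPKM against 22.8 and 21.4 FPKM, with its highest level in the matrix (26.8 and 21.2 FPKM) and a call that was lost without a papilla library (adjusted p = 0.0667 without papilla library 1 and 0.0649 without papilla library 2).

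BMP and TGF-beta ligands and antagonists had 19 of 23 tested genes higher in the papilla and 0 higher in melanocytes, with a median difference of 2.56. Inhba, the subunit of activin A, had 692 and 629 FPKM against 3.02 and 5.98 FPKM (log2 difference 6.96 ± 0.33, adjusted p = 2.23e-06). Bmp4 had 370.1 and 258 FPKM against 0.670 and 0.447 FPKM, and Bmp6 125 and 73.8 FPKM against 0.613 and 0.0906 FPKM. Sostdc1, an inhibitor of BMP and WNT signals, had 460.4 and 641 FPKM against 1.55 and 0.259 FPKM. Receptors of these families were less one-sided in number, with 4 of 12 higher in the papilla, 2 higher in melanocytes and 6 not called. The 4 are 33.3% and the 2 are 16.7%, against 21.2% and 13.4% of all tested genes. The number higher in melanocytes is thus not a result about these receptors. Their median was 0.20, and the difference between the ligand and receptor lists was not tested. Bmpr1a, a type I BMP receptor, overlapped between the populations at 22.9 and 34.8 FPKM in the papilla and 24.7 and 36.3 FPKM in melanocytes (adjusted p = 0.871). Acvr2a, an activin receptor, had 6.14 and 10.5 FPKM against 10.5 and 22.6 FPKM (log2 difference -0.86 ± 0.44, adjusted p = 0.157). Melanocytes thus held transcripts of receptors for ligands called higher in the papilla, with no difference called for the receptors themselves.

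Of 6 tested FGF ligands 5 were higher in the papilla (median difference 3.10), and the receptors described here lay on the same side. Of the 12 FGF ligand genes 5 were listed at 0 in both melanocyte libraries. These could pass the filter only by their papilla level, so the ligand count describes the list. Fgf7 had 348 and 666 FPKM in the papilla and 0.521 and 0.405 FPKM in melanocytes (log2 difference 8.37 ± 0.36, adjusted p = 1.7e-06), and Fgf10 had 88.8 and 151 FPKM against 0.103 and 0.114 FPKM. FGFR2, the receptor for both in epithelium, is encoded by Fgfr2, which had 212 and 206 FPKM in the papilla and 2.09 and 0.943 FPKM in melanocytes. Fgf2, a melanocyte mitogen in culture, had 22.98 and 8.43 FPKM in the papilla and was listed at 0 in both melanocyte libraries. Its receptor Fgfr1 had 197 and 164 FPKM against 4.01 and 5.07 FPKM (log2 difference 5.03 ± 0.29, adjusted p = 5.06e-06). The libraries of the 2 populations did not overlap for any of these 5 genes. The spans of Fgf2, Fgf7 and Fgfr2 overlap annotated neighbours, however, whose reads may not have been told apart.

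The pairs Mdk with Ptprz1 and Cxcl12 with Cxcr4 had both members higher in the papilla. Mdk, encoding midkine, had 483 and 309 FPKM in the papilla and 20.1 and 14.3 FPKM in melanocytes, and its receptor Ptprz1 74.1 and 99.9 FPKM against 0.359 and 0.0253 FPKM. Cxcl12, the ligand of CXCR4, had 12.5 and 11.9 FPKM against 0.523 and 1.83 FPKM. Cxcr4 itself had 18.4 and 19.6 FPKM against 1.98 and 3.98 FPKM. Both of these calls were lost on leaving out a papilla library, with adjusted p-values of 0.116 to 0.141. Slit3, a secreted guidance cue, had 173 and 126 FPKM against 0.715 and 0.208 FPKM. Pdgfra, the PDGF receptor of dermal mesenchyme, had 142 and 192 FPKM against 0.287 and 0.110 FPKM (log2 difference 7.12 ± 0.33, adjusted p = 2.21e-06). As a list, receptor tyrosine kinases and their co-receptors had 19 of 27 tested genes (70.4%) higher in the papilla and 5 (18.5%) in melanocytes. Their median difference was 2.60, and the shares over all tested genes were 21.2% and 13.4%.

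Growth factors that bind receptor tyrosine kinases had 14 of 24 tested genes higher in the papilla and 4 higher in melanocytes (median difference 1.27). The 14 are 58.3% and the 4 are 16.7%, against 21.2% and 13.4% of all tested genes. The number higher in melanocytes is thus not a result about growth factors. Vegfa, a growth factor of blood vessels, had 37.3 and 47.1 FPKM in the papilla and 7.95 and 12.5 FPKM in melanocytes. Igf1 had 7.42 and 12.3 FPKM against 0.994 and 0.0147 FPKM, and Igf2 14.9 and 20.0 FPKM against 1.42 and 1.37 FPKM. These 3 calls were lost on leaving out a papilla library, with adjusted p-values of 0.0507 to 0.13. Pros1, a ligand of the TAM receptors, was on the papilla side at 29.8 and 46.6 FPKM against 9.896 and 13.6 FPKM, opposite to the related Gas6, with a call lost without a papilla library (adjusted p = 0.105 without papilla library 1 and 0.152 without papilla library 2). The neurotrophins Bdnf and Ntf3 were low, with 2.15 and 4.01 FPKM and 1.898 and 3.502 FPKM in the papilla, and both calls were lost with a pseudocount of 5.

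Guidance ligands had 15 of 29 tested genes higher in the papilla and 4 higher in melanocytes (median difference 1.16). The 15 are 51.7% and the 4 are 13.8%, against 21.2% and 13.4% of all tested genes. The number higher in melanocytes is thus not a result about guidance ligands. Efnb3, an ephrin bound to the membrane, had 31.6 and 23.3 FPKM against 0.0866 and 0.663 FPKM (log2 difference 4.39 ± 0.39, adjusted p = 5.09e-05). Sema3f, a secreted semaphorin, had 14.6 and 10.6 FPKM against 1.15 and 0.282 FPKM, with a call lost without a papilla library (adjusted p = 0.0968 without papilla library 1 and 0.0777 without papilla library 2). Sema3a, whose protein binds NRP1, overlapped between the populations at 0.770 and 1.87 FPKM and 1.704 and 2.55 FPKM. Of 14 tested chemokines, cytokines and their receptors 9 were higher in the papilla and 0 higher in melanocytes (median difference 2.49). Of the 26 such genes with values, 10 were listed at 0 in both melanocyte libraries. Such a gene could pass the filter only by its papilla level, so the count describes the list. Cxcl1, which attracts neutrophils, had 42.02 and 82.8 FPKM against 1.17 and 0.948 FPKM, and Cxcl14 49.8 and 42.9 FPKM against 2.09 and 2.28 FPKM. Ccl2, which attracts monocytes, had 7.59 and 11.2 FPKM in the papilla and was listed at 0 in both melanocyte libraries.

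Notch genes had 7 of 13 tested members higher in the papilla and 0 higher in melanocytes (median difference 1.55). The ligand Jag1 had 26.2 and 26.7 FPKM in the papilla and 1.203 and 1.17 FPKM in melanocytes (log2 difference 3.65 ± 0.35, adjusted p = 6.97e-05), and the receptor Notch3 10.2 and 8.54 FPKM against 0.316 and 0.193 FPKM. Hey1 and Hey2, target genes of Notch, had 159 and 155 FPKM and 70.9 and 73.7 FPKM in the papilla against 29.7 and 24.04 FPKM and 6.81 and 9.27 FPKM in melanocytes, with calls that were lost without a papilla library (adjusted p of 0.0552 to 0.0555 for Hey2), that of Hey1 only without papilla library 1 (adjusted p = 0.0504). Notch2, by contrast, overlapped at 15.1 and 11.7 FPKM and 11.2 and 11.98 FPKM, and Notch1 had 14.5 and 11.6 FPKM against 7.65 and 3.92 FPKM with an adjusted p of 0.0567, although it was called in 6 alternatives, with adjusted p-values of 0.00668 to 0.0483. The target Hes1 also overlapped, at 11.6 and 9.91 FPKM and 20.1 and 10.7 FPKM.

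The 15 receptors higher in melanocytes were Mc1r, Kit, Met, Ednrb, Erbb3, Erbb4, Igf2r, Plxnc1, Plxna4, Nrp1, Unc5d, Fzd6, Fzd7, Bmpr2 and Acvr1c. The 7 called without either papilla library were Mc1r, Kit, Met, Ednrb, Erbb3, Plxnc1 and Plxna4. Plxna4, a plexin for class 3 and class 6 semaphorins, had 1.13 and 1.32 FPKM in the papilla and 44.7 and 64.8 FPKM in melanocytes (log2 difference -4.62 ± 0.35, adjusted p = 2.27e-05). Nrp1, a co-receptor of class 3 semaphorins and of VEGF, had 1.46 and 2.67 FPKM against 22.1 and 18.05 FPKM. Unc5d, a netrin receptor, had 0.497 and 0.700 FPKM against 7.198 and 6.695 FPKM. Among frizzled WNT receptors, Fzd6 had 1.99 and 2.56 FPKM against 10.9 and 11.9 FPKM and Fzd7 23.04 and 17.7 FPKM against 43.8 and 40.7 FPKM. Acvr1c, a type I receptor for activin and nodal, had 0.0544 and 0.0795 FPKM against 7.91 and 2.48 FPKM, with its melanocyte libraries differing by more than 3-fold. Igf2r, which clears IGF2 and sorts lysosomal enzymes, had 15.96 and 17.2 FPKM against 44.6 and 50.99 FPKM and is named here after its values were seen. The spans of Igf2r and Acvr1c overlap the annotated genes Airn and Gm13544. The calls of Nrp1, Unc5d, Fzd6, Fzd7 and Acvr1c were lost on leaving out a papilla library. That of Fzd7 was also lost with a pseudocount of 5, under quantile normalization and without melanocyte library 1. The Acvr1c call was also lost with a pseudocount of 5.

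**Figure D4:**
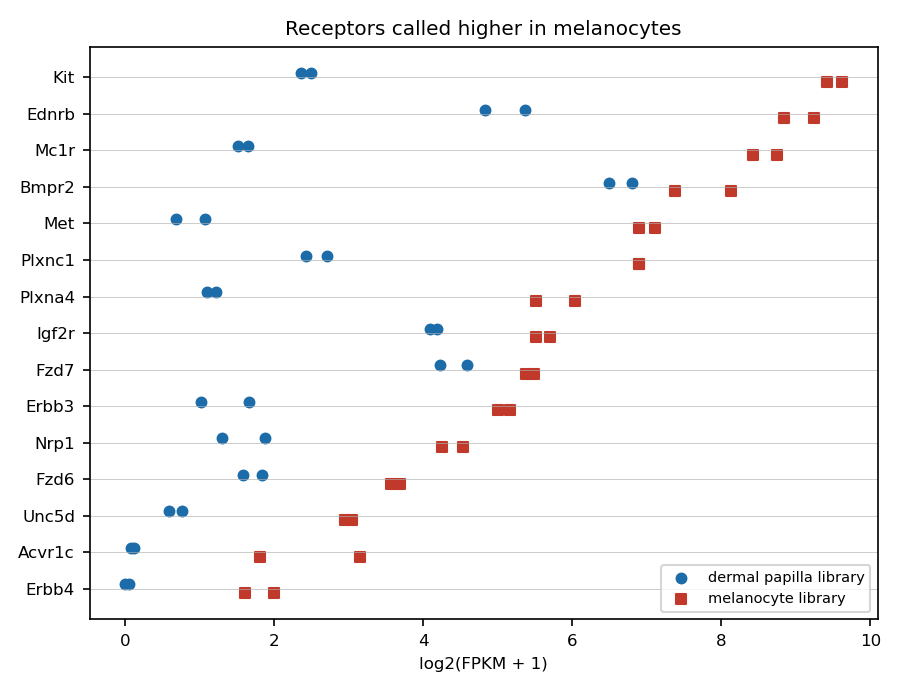
Level as log2(FPKM + 1) in each library for the 15 receptor genes called higher in melanocytes, ordered by mean melanocyte FPKM. Circles (papilla) lie to the left of squares (melanocytes) in each row, with the widest gaps for Kit and Mc1r and the narrowest for Bmpr2 and Fzd7.

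Signals in the opposite direction, higher in melanocytes, numbered 11, among them Wnt4, Dkk3, Vegfc, Gas6, Sema3b, Sema3c, Sema6a and Sema6d. The 11 are 9.57% of the 115 tested signals, below the 13.4% of all tested genes, so their number is not a result about signals. Sema6d, a transmembrane semaphorin, had 11.2 and 10.1 FPKM in the papilla and 97.7 and 108 FPKM in melanocytes (log2 difference -3.15 ± 0.28, adjusted p = 4.71e-05). Vegfc, a growth factor of lymphatic vessels, had 7.03 and 4.803 FPKM against 22.9 and 29.5 FPKM. Gas6, the ligand of the TAM receptors, had 15.6 and 8.71 FPKM against 23.6 and 34.6 FPKM, with its receptor Tyro3 at 2.82 and 2.32 FPKM against 0.756 and 0.712 FPKM. On leaving out a papilla library the calls of Wnt4, Vegfc, Gas6, Sema3b, Sema3c, Sema6a and Tyro3 were lost. That of Gas6 was also lost with no filter and without melanocyte library 2. The Tyro3 call was also lost with a pseudocount of 5, under quantile normalization and with each library centred on its median. With a pseudocount of 5 the Sema3c call was lost too.

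Among the functional lists, the pigment programme had the largest share of genes on the melanocyte side, with 25 of 29 tested genes of melanin synthesis and the melanosome higher in melanocytes and 0 higher in the papilla (median difference -5.54). Tyr, the rate-limiting enzyme of melanin synthesis, had 3.49 and 6.58 FPKM in the papilla and 1239.8 and 1668 FPKM in melanocytes (log2 difference -7.95 ± 0.34, adjusted p = 1.69e-06). Dct, dopachrome tautomerase, had 19.3 and 22.7 FPKM against 4064 and 2298 FPKM, and Pmel, whose protein forms the fibrils of the melanosome, 16.9 and 12.4 FPKM against 3124 and 1632 FPKM. Slc45a2, a melanosomal transporter, had 5.804 and 4.28 FPKM against 903 and 1479 FPKM. The 4 genes not called, Hps1, Hps6, Bloc1s3 and Dtnbp1, encode subunits of complexes that build lysosome-related organelles in many cell types. Of 14 tested pigment cell transcription factors 9 were higher in melanocytes (median difference -3.75). Mitf, the master regulator of melanocytes, had 2.66 and 3.96 FPKM against 237 and 252 FPKM (log2 difference -5.85 ± 0.30, adjusted p = 2.63e-06), and Pax3 and Irf4 had 72.6 and 72.7 FPKM and 119.9 and 91.3 FPKM in melanocytes and under 1 FPKM in the papilla. Snai2 and Sox9, which are also active in mesenchyme, were the 2 members higher in the papilla. Snai2 had 87.8 and 123 FPKM against 12.7 and 12.8 FPKM. Sox9 had 5.12 and 7.19 FPKM against 1.89 and 0.936 FPKM, and its call was lost without a papilla library and with a pseudocount of 5. Sox9 was highest in outer root sheath, at 60.4 and 101 FPKM, and the part of keratinocyte RNA in its papilla level was not tested.

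MITF binds a motif called the M-box, whose core was searched here as TCATGTG on both strands in RefSeq promoters of build GRCm38.p6, each running from 250 bases before to 50 after the gene start. Of the 29 melanin and melanosome genes 24 had at least 1 promoter in that table, 29 promoters in all, and 7 promoters (24.1%), each of another gene, held the core. The share was 3.77% of all 32851 promoters, 2.06% of the 11943 promoters of tested genes, 3.35% of the 1640 promoters of genes called higher in melanocytes and 1.43% of the 2518 of genes called higher in the papilla. These shares are a description, and a match is not shown to be a bound site. The windows shown are those of the enzyme genes, of the channel gene Trpm1, of the receptor Mc1r and, for contrast, of Hps1, which was not called. Each shows 12 bases on either side of the core, which is in capitals, read 5′ to 3′ along the gene's strand.
Tyr (chr7:87493516-87493546, minus strand): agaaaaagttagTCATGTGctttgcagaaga
Tyrp1 (chr4:80834154-80834184, plus strand): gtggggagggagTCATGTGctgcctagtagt
Dct (chr14:118052379-118052409, minus strand): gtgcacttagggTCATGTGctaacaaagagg
Trpm1 (chr7:64153681-64153711, plus strand): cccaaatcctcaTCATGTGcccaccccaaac
Mc1r (chr8:123407018-123407048, plus strand): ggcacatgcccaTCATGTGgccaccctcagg
Hps1 (chr19:42779975-42780005, minus strand): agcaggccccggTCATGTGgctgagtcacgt
The core in Tyr, Tyrp1, Trpm1, Mc1r and Hps1 started 22, 47, 142, 52 and 15 bases before the gene start, and Dct held 1 core 151 bases before it and another on the opposite strand. Hps1 had 3.14 and 2.17 FPKM in the papilla and 3.47 and 3.17 FPKM in melanocytes. The whole Mc1r promoter (chr8:123406832-123407131, plus strand) is given because Mc1r is the receptor of the agouti pair, with the core in capitals.
Mc1r promoter: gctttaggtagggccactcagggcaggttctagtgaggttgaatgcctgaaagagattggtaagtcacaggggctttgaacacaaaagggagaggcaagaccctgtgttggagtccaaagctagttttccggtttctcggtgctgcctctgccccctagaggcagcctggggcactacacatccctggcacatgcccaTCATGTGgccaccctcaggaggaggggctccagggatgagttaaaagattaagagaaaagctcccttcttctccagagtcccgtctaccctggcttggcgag
Another E-box, CACGTG, which reads the same on both strands and cannot overlap TCATGTG or its complement CACATGA, was found in 7.15% of all promoters and in 9.87% of those of tested genes. The share was 12.7% for genes called higher in melanocytes, 7.15% for genes called higher in the papilla and 10.1% for genes not called. It was 31.0% (9 of 29) for the melanin list and 18.2% (4 of 22) for the list of dermal papilla genes, where TCATGTG was found in 0. These shares too are a description, and a match is not shown to be a bound site.

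Trpm1, a cation channel gene first described in melanocytes, had 4.97 and 3.302 FPKM in the papilla and 1436 and 1241 FPKM in melanocytes (log2 difference -8.04 ± 0.30, adjusted p = 1.43e-06). The microRNA gene Mir211 lies within Trpm1 and was listed at 0 in both papilla libraries and at 11796 and 7750.1 FPKM in melanocytes. Scaling to transcript length gives a short hairpin a high value, and in amplified total RNA its reads cannot be told apart from those of the host transcript, so the value is no measure of the mature microRNA. The mature 5′ arms of miR-211 and of miR-204, whose gene was not analysed here, are printed because they share the seed at bases 2 to 8, in capitals.
mmu-miR-211-5p: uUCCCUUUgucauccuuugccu
mmu-miR-204-5p: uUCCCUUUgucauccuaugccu

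Of 26 tested fibrillar matrix genes 24 were higher in the papilla and 0 in melanocytes (median difference 4.05). Col6a3, a microfibrillar collagen chain, had 272 and 211 FPKM against 0.811 and 0.890 FPKM, and Bgn, a small proteoglycan, 519 and 458 FPKM against 6.55 and 4.16 FPKM. Sparc, which modulates cell contact with matrix, was high in both at 1181 and 1063 FPKM and 665 and 1228 FPKM (adjusted p = 0.609), although it was listed at 0 in both sheath libraries. Of 14 tested integrin genes 8 were higher in the papilla, among them Itgb5 with 58.5 and 35.6 FPKM against 0.986 and 0.229 FPKM, and Itga6, a laminin receptor subunit, was higher in melanocytes at 4.74 and 3.92 FPKM against 13.6 and 19.6 FPKM. The call of Itga6 was lost without a papilla library (adjusted p = 0.144 without papilla library 1 and 0.144 without papilla library 2), and that of Itgb5 without papilla library 1 (adjusted p = 0.0536). The median difference of the integrins was 1.18. Of 19 tested basement membrane genes 12 were higher in the papilla, among them the laminin chain gene Lama2 with 182 and 205 FPKM against 0.363 and 0.922 FPKM, and 2, Lama1 and Nid2, were higher in melanocytes (median difference 1.49). The calls of Lama1 and Nid2 were lost without a papilla library (adjusted p of 0.0651 to 0.193) and with a pseudocount of 5, and that of Nid2 also without melanocyte library 2. Of 22 tested adhesion molecules 8 (36.4%) were higher in the papilla and 5 (22.7%) in melanocytes (median difference 0.57). Over all tested genes the shares were 21.2% and 13.4%. Cadherins stood on both sides. Cdh1 and Cdh3, encoding E- and P-cadherin by which melanocytes hold to keratinocytes, had 122 and 83.4 FPKM and 183 and 130.4 FPKM in melanocytes against 7.96 and 5.49 FPKM and 8.996 and 5.02 FPKM in the papilla. The call of Cdh1 was lost without papilla library 2 (adjusted p = 0.0502). Cdh11, a cadherin of mesenchyme, had 322 and 431 FPKM in the papilla and 3.55 and 13.7 FPKM in melanocytes, with a call that was lost on leaving out a papilla library (adjusted p = 0.0989 without papilla library 1 and 0.0999 without papilla library 2). Cadm1, an adhesion molecule of the immunoglobulin family, had 1.55 and 1.35 FPKM against 52.6 and 52.7 FPKM (log2 difference -4.45 ± 0.33, adjusted p = 1.9e-05).

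**Figure D5:**
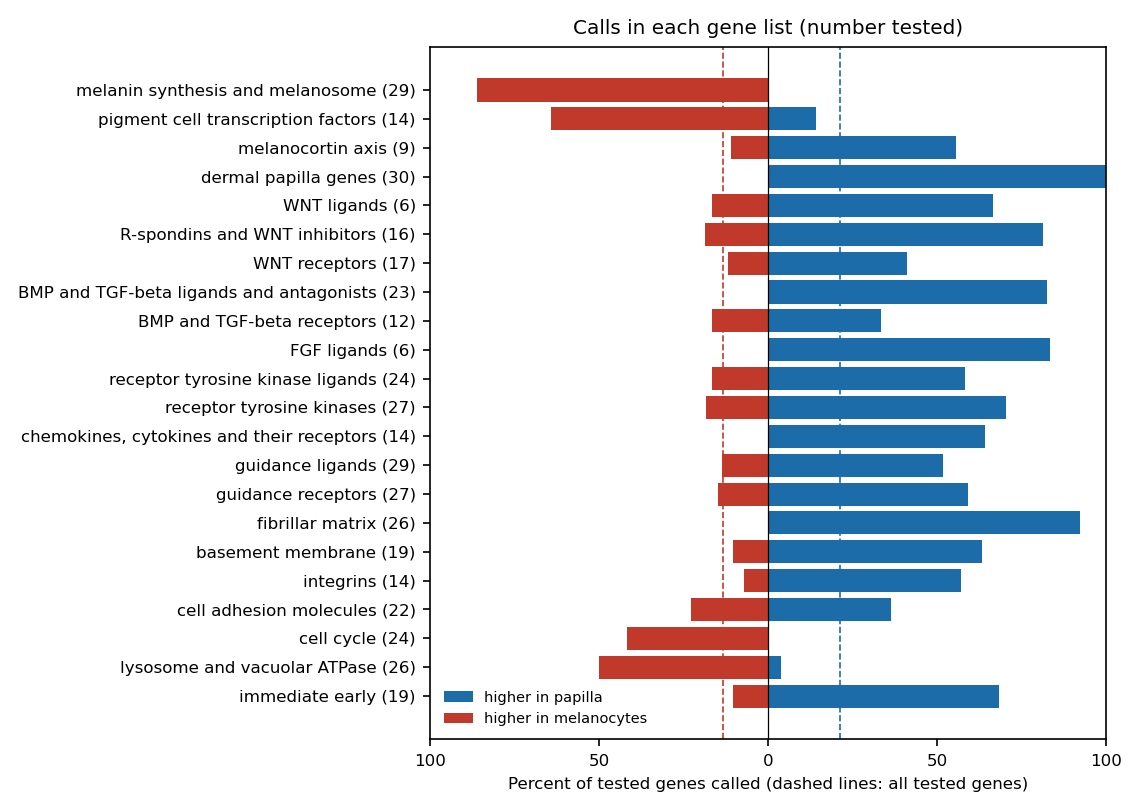
Share of the tested genes of each list called higher in the papilla (bars to the right) or in melanocytes (bars to the left), in percent, with the number tested in brackets; dashed lines mark the shares over all tested genes, 21.2% and 13.4%. Melanin genes reach 25 of 29 on the melanocyte side, and papilla genes and fibrillar matrix lie on the papilla side.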

How the data were processed

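The authors deposited 1 table of FPKM with a column for each library, and the tools listed in the submitters' processing notes are Bowtie2, TopHat2 2.0.3 and Cufflinks 2.1.1, with the genome build mm10 and no role or order stated. Per the labels' protocols, total RNA from sorted cells was amplified before library preparation. No header names the unit, which was taken to be FPKM because Cufflinks reports FPKM and the values fit that range. Depth in reads is unknown, so precision is given by the spread between 2 libraries.

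FPKM were analysed as log2(FPKM + 1) with no further scaling. The 12674 genes reaching 1 FPKM in 2 or more of the 4 libraries were fitted together using limma (version 3.58.1, under R version 4.3.3). The prior variance followed the mean level, and there were 2 residual degrees of freedom and 6.92 prior degrees of freedom. Two-sided p-values were adjusted by Benjamini-Hochberg over all fitted genes, and the method was tested on simulated data. The median SD between libraries was 0.25 on the log2 scale in the papilla and 0.27 in melanocytes. An exact permutation test of 2 against 2 libraries cannot go below p = 0.333. The other 8 libraries gave levels only and entered no test.

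The 37 gene lists (967 entries, 610 distinct genes, 6 not matched in the table and 6 matched by a synonym in RefSeq), the pairs and the members were chosen with earlier results of these data known. Genes named are, in each direction, the 10 called genes with the largest difference, above 0 in all 4 libraries, without overlap and with at least 5 FPKM in the higher population. The 5 with the highest mean among those listed at 0 in the lower population, up to 4 called members per list and direction, the genes of the pairs, and a, Corin, Mc1r and Kit were added. Exceptions are named to show members that were not called, other lists' markers or the remaining members of a count, and were chosen after their values were seen. Coordinates are those of GENCODE M21 on GRCm38, and sequences those of RefSeq on GRCm38.p6. Of the tested genes 11836 matched 1 annotated gene. Results for some genes are not reported here.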

Additional observations from a re-analysis of the deposited data

How the results depend on the processing

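With 2 libraries in each population, every call rests on 2 residual degrees of freedom and on a spread shared across genes. Leaving out 1 library leaves 1 residual degree of freedom, and the lone library is then assumed to vary like the other population. Over the libraries left out in turn, genes higher in the papilla numbered 988 to 3112, genes higher in melanocytes 172 to 1899, papilla signals 49 to 83 and melanocyte receptors 7 to 16, against 2687, 1696, 79 and 15. The low ends came from leaving out papilla library 1 (988, 172, 49 and 7) or papilla library 2 (1053, 192, 52 and 7), and the cause was not tested. With a pseudocount of 5 the gene counts were 1485 and 1075, which by construction shrinks differences of low genes. The other alternatives, apart from those chosen after seeing the data, kept each of these 4 counts within 1.5 times. Quantile normalization gave 2082 and 2255 genes and moved the median difference from 0.04 to -0.12, and centring each library on its median gave 2500 and 2053. With genes listed at 0 in any library left out the counts were 2092 and 1745. The labels give libraries of the same replicate number nothing in common but that number, and whether they shared a preparation is not known. Their deviations correlated at 0.35 between the populations, and a fit with the replicate block called 2876 and 1856 genes. In alternatives chosen after seeing the data, leaving out genes higher in outer root sheath or matrix than in the papilla gave 2189 papilla genes and 57 signals but, since it removes genes low in the papilla, left 7 melanocyte receptors and 430 of the 1696 melanocyte genes. Leaving out genes higher in outer root sheath or matrix than in melanocytes gave 1294 melanocyte genes and 13 receptors and left 680 of the 2687 papilla genes, and leaving out small RNAs gave 2704 and 1715 genes. Of 203 called genes named by the rule, 98 were called in each alternative in which they were fitted, 93 lost their call without papilla library 1 and 88 without papilla library 2, and 0 reversed.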

Other observations

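A further list joined lysosomal genes with those of the vacuolar ATPase, a proton pump that acidifies organelles. Of its 26 tested members 13 were higher in melanocytes and 1 in the papilla (median difference -1.07, against 0.04 over all tested genes). Atp6v0a1, a membrane subunit of the proton pump, had 26.6 and 28.3 FPKM in the papilla and 233 and 184 FPKM in melanocytes (log2 difference -2.87 ± 0.28, adjusted p = 8.06e-05 in limma). Atp6v0d2, an alternative subunit, had 0.0515 and 0.0874 FPKM against 18.02 and 30.5 FPKM. Ctsk, a collagen-degrading cathepsin, was the member higher in the papilla, with 36.02 and 28.7 FPKM against 1.88 and 1.02 FPKM. The calls of Atp6v0d2 and Ctsk were lost on leaving out a papilla library, with adjusted p-values of 0.0568 to 0.0645. Cell cycle genes had 10 of 24 tested members higher in melanocytes and 0 in the papilla (median difference -0.88), among them Mki67 with 22.04 and 23.01 FPKM against 81.9 and 50.9 FPKM. Its call was lost without a papilla library (adjusted p = 0.192 without papilla library 1 and 0.159 without papilla library 2). Cdk2 had 9.22 and 9.82 FPKM against 201 and 118 FPKM, with a call lost without a papilla library (adjusted p of 0.0602 to 0.0634), but its annotated span overlaps Pmel, so reads of the 2 genes may not have been told apart.

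Hedgehog genes had 9 of 10 tested members higher in the papilla (median difference 2.96). Hhip, a target that binds the ligand, had 154 and 263 FPKM in the papilla and 0.223 and 0.112 FPKM in melanocytes (log2 difference 7.44 ± 0.36, adjusted p = 2.33e-06 in limma), and the target Gli1 had 85.8 and 52.1 FPKM against 0.312 and 1.07 FPKM. Of 30 Hox genes 23 passed the filter and were higher in the papilla, with a median difference of 2.63, among them Hoxc8 with 67.1 and 75.7 FPKM against 0.172 and 0.462 FPKM. Hoxc10 had 34.6 and 24.7 FPKM in the papilla and was listed at 0 in both melanocyte libraries. A gene listed near 0 in melanocytes could pass the filter only by its papilla level, so the Hox count describes the list. Immediate early genes, which respond to cell dissociation among other stimuli, had 13 of 19 tested members higher in the papilla and 2, Klf6 and Nr4a2, higher in melanocytes (median difference 2.09). Egr1 had 736 and 587 FPKM against 109.8 and 55.3 FPKM and Fosb 476 and 366 FPKM against 70.7 and 34.9 FPKM. Without a papilla library the calls of Egr1, Fosb, Klf6 and Nr4a2 were lost, with adjusted p-values of 0.101 to 0.238, and that of Klf6 was also lost under quantile normalization and without melanocyte library 1. Sorting time was not given in the sources used here, and its part in these values was not tested.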
